A study of Mus musculus with 9 samples.

Results

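The genes described here are *Acss2* and 9 other enzymes of acetyl-CoA supply and fatty acid synthesis: *Acss1*, *Acly*, *Acaca*, *Acacb*, *Fasn*, *Elovl6*, *Scd1*, *Scd2* and *Me1*. They were chosen by symbol, from what the enzymes are known to do, and all 10 were found among the 54347 genes of the count table. Poly-A RNA was sequenced from 3 mouse myeloid lines, with 3 libraries per line. Hox-WT is a wild-type progenitor line. Hox-URE is a progenitor line of UREd/d genotype, in which a distal enhancer of the PU.1 gene *Spi1*, called the URE, is deleted. URE-AML, labelled B22, is an AML blast-like line with the UREd/d genotype, made from blasts of a mouse that had become leukemic. Both Hox lines were immortalized from lineage-negative c-Kit+ marrow with a Hoxb8-ER fusion, a Hoxb8 protein that needs estradiol to act. According to the labels, all 3 lines grew in IMDM with 20% FCS, 10 ng/ml each of IL-3, IL-6 and SCF, and 1 µM estradiol. The methods of the study state another estradiol concentration. Each genotype and stage was represented by 1 line, so a difference between lines cannot be told apart from a difference between genotypes or stages. Nothing in the labels tells whether the libraries of one line were separate cultures, so each p-value measures only the spread between libraries, which may be technical. In such bulk RNA, fewer cells of a type and less RNA per cell cannot be told apart.

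Cells build fatty acids in the cytosol from acetyl-CoA. ATP citrate lyase makes it from citrate that has left the mitochondria, and acetyl-CoA synthetase makes it from acetate. Acetyl-CoA carboxylase turns part of it into malonyl-CoA, fatty acid synthase joins these units with electrons from NADPH, and elongases and desaturases then lengthen the chains and add double bonds. Dividing blood progenitors need such chains for membranes, and acetyl-CoA is also the donor for protein acetylation.

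Total counts per library ran from 20331064 to 28588718, so 3 counts, used here as the detection floor, equalled 0.105 to 0.148 counts per 1e6 of the library total. *Spi1* was at 96.6 to 110 CPM in Hox-WT, at 1, 1 and 0 counts in Hox-URE libraries 1 to 3, and at 2.50 to 6.35 CPM in URE-AML. *Hoxb8* was at 61.6 to 141 CPM in the Hox lines and at 0 counts in all 3 URE-AML libraries. Of 6 progenitor markers, all were above 3 counts in each Hox-WT library. The leukocyte marker *Ptprc*, at 152 to 170 CPM in Hox-WT, was at 0 counts in every Hox-URE library and at 1, 0 and 1 counts in URE-AML. In URE-AML the progenitor marker *Cd34* averaged 0.0135 CPM, against 1434 in Hox-WT, while *Elane* averaged 7311 CPM, against 181. *Mpo* averaged 5042 CPM in Hox-WT and 5.04 CPM in Hox-URE. The summed level of the 6 progenitor markers ran from 5592 to 8639 CPM in Hox-WT, from 805 to 1284 CPM in Hox-URE and from 5457 to 12193 CPM in URE-AML. The summed level of 6 mature neutrophil markers was 45.4 to 93.5 CPM in Hox-WT, at most 0.358 CPM in Hox-URE and 3789 to 8780 CPM in URE-AML. The summed level of 6 basophil and mast cell markers was 483 to 838 CPM, 1613 to 5892 CPM and 31.4 to 62.7 CPM in the same order. That of 6 monocyte and macrophage markers was 295 to 303, 841 to 941 and 15.8 to 28.2 CPM. In Hox-URE *Ccr2* alone carried this sum (mean 885 CPM, against 12.7 in Hox-WT), while the means of the other 5 markers were below those of Hox-WT. The summed lymphoid and erythroid markers stayed at or under 3.25 and 13.7 CPM. These marker levels moved with the lines, and their part in the results below was not tested. The 6 adipocyte and hepatocyte markers together reached at most 0.373 CPM in any library. Within Hox-URE, library 1 stood apart, with a chi-square per degree of freedom of 73.8 against library 2 and 109 against library 3, where libraries 2 and 3 differed by 28.9.

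Below, CPM are counts scaled by the library total and a TMM factor. A gene is called here when edgeR's quasi-likelihood F test gave an adjusted p under 0.05, by Benjamini-Hochberg over 13082 tested genes, and the fold change was over 1.5. All 10 genes passed the filter on low counts, although *Me1* reached 10 counts only in URE-AML libraries. In Hox-URE versus Hox-WT, the calls among the 10 numbered 3, 1 higher and 2 lower, where the background over all tested genes was 37.2% (21.3% for higher and 15.9% for lower calls). In URE-AML versus Hox-WT, 5 were called, 1 higher and 4 lower, against 43.2% of all genes (23% higher and 20.2% lower). In URE-AML versus Hox-URE, 6 were called, 2 higher and 4 lower, against 42.7% of all genes (20.3% higher and 22.4% lower). The libraries of the lines compared did not overlap for 5, 8 and 6 of the 10 genes in these comparisons, beside 60.3%, 67.6% and 62.8% of all genes. Without the fold limit, 4, 6 and 6 of the 10 passed, beside 53%, 57.7% and 58% of all genes. With only 10 genes, these counts are read as near the background. The median absolute log2 fold change of the 10 was 0.45, 0.99 and 2.27 in the same order, beside 0.49, 0.56 and 0.55 over all tested genes. The comparisons share libraries, since each line enters 2 of them, so their values stand side by side and are not independent.

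**Figure D1:**
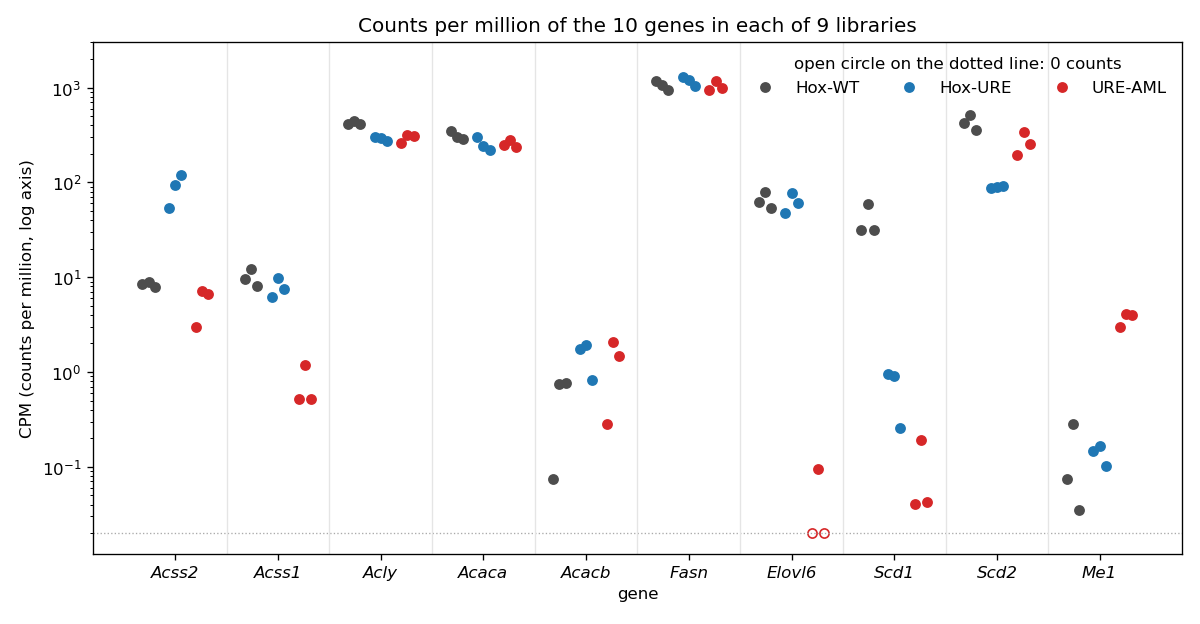
Level in CPM (log axis) of the 10 genes in each of 9 libraries, with 3 points per line and gene and open circles for 0 counts. *Acss2* stands high in the 3 Hox-URE libraries (53.1 to 121 CPM), *Elovl6* is near absent in URE-AML, *Me1* reaches 2.95 to 4.04 CPM only there, and *Fasn* lies at 940 to 1302 CPM in every library.

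The study's screen targeted *Acss2* (ENSMUSG00000027605, GRCm38 chr2:155517948-155585724, plus strand) with 5 short hairpin RNAs. Their target sites are shown because they place the reagent on the member of the set that rose in Hox-URE. No letter is capitalised, since each site matches the transcript in full:
Acss2 site 1: ctcgccttggagctttgcact
Acss2 site 2: ccaggtgtgtcagttcagcaa
Acss2 site 3: cccattcctccagtacaactt
Acss2 site 4: gaaaggagcaactacaaacat
Acss2 site 5: caacgtgctggatcgaaatgt
All 5 lie in the coding part of its longest transcript in GENCODE M21 (2931 bases, 18 exons), and 4 of its 5 transcripts with a coding part hold each site. Sites 3, 4 and 5 fall in exon 2, at chr2:155522033-155522053, chr2:155522090-155522110 and chr2:155522117-155522137. Site 2 falls in exon 3, at chr2:155549245-155549265, and site 1 in exon 4, at chr2:155549551-155549571. No hairpin library is part of the counts analysed here.

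The 250 bases before the RefSeq start site are shown for *Acss2*, *Acss1* and *Elovl6*, the genes whose levels parted most between Hox-URE and URE-AML in the downward direction. Capitals mark matches, on either strand, to any of 6 motifs spelled out after the sequences, and no match overlaps another in these 3 windows:
Acss2 (chr2:155517793-155518042, plus strand): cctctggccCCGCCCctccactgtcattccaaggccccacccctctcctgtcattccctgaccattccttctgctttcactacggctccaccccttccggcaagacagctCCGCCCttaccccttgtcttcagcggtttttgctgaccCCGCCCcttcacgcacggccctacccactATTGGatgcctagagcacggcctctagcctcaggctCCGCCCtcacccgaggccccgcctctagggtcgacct
Acss1 (chr2:150668241-150668490, minus strand): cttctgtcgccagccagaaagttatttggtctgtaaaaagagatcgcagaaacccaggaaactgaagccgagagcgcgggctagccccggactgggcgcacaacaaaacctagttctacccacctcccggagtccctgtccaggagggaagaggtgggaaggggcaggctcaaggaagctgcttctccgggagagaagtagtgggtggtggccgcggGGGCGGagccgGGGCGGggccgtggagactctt
Elovl6 (chr3:129532136-129532385, plus strand): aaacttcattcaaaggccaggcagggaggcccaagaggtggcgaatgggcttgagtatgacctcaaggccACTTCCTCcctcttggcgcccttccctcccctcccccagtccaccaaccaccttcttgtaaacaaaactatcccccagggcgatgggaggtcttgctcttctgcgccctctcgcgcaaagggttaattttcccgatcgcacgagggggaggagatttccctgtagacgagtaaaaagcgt
The *Acss2* window held 4 GC-box matches and 1 CCAAT match, and the *Acss1* window 2 GC-box matches. The *Elovl6* window held 1 match to the PU.1 letters. The GC-box was searched as GGGCGG and was in 32.7% of all 32851 windows of this length. The letters CCAAT were in 33.8% of them. The PU.1 motif was searched as GAGGAAGT and was in 2.44%. A RUNX motif searched as TGTGGT was in 14% of windows, an E-box searched as CACGTG in 6.02% and a sterol element searched as TCACNCCAC, with N any base, in 1.05%, and none of these was in the 3 windows shown. A match is a description of letters, not a site. GC content was 64% for *Acss2*, 61.6% for *Acss1* and 56.4% for *Elovl6*, beside a median of 52.4% over all windows. Of the 10 genes, 8 had an entry, and *Scd1* and *Scd2* had none.

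Of the 3 lines, *Acss2*, the cytosolic and nuclear acetyl-CoA synthetase, had its highest level in Hox-URE. *Acly*, which also supplies acetyl-CoA, stood above it there (mean 289 against 89.5 CPM). The level of *Acss2* was 8.47, 8.96 and 7.92 CPM in Hox-WT libraries 1 to 3. In Hox-URE it was 53.1, 94.8 and 121 CPM, and in URE-AML 2.95, 7.18 and 6.65 CPM. Every Hox-URE library lay above every library of the other lines, and the lowest Hox-URE library was number 1. From Hox-WT to Hox-URE *Acss2* rose 10.6-fold, with a 95% interval of 2.62 to 4.18 on the log2 scale and an edgeR adjusted p of 2.5e-05. It fell by 4.0 on the log2 scale from Hox-URE to URE-AML (SE 0.36, edgeR adjusted p = 7.55e-06), and all 18 alternative settings called both differences. Without Hox-URE library 1 the log2 fold changes were 3.66 and -4.28.

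Between URE-AML and Hox-WT the *Acss2* libraries did not overlap, as was so for 67.6% of all genes in this comparison, but the gene was not called. The log2 fold change was -0.60 (SE 0.35, 95% interval -1.38 to 0.18, edgeR adjusted p = 0.165), and it was -0.29 without URE-AML library 1. Of 18 alternatives, 1 called this difference, the fit with the replicate number as a block. Relative to its mean, the SD of *Acss2* over 3 libraries was 6.18% for Hox-WT, 38.0% for Hox-URE and 41.2% for URE-AML. In Hox-URE libraries 1 to 3, the summed basophil and mast cell markers were 1613, 3525 and 5892 CPM, with *Acss2* lowest and highest in the same libraries. The summed progenitor (805, 1239 and 1284 CPM), mature neutrophil, lymphoid and erythroid markers rose in the same order. Those of monocytes and macrophages (841, 941 and 882 CPM) and of adipocytes and hepatocytes did not. The total counts of these Hox-URE libraries were 28300453, 25583126 and 20879183, in the opposite order. In Hox-WT the basophil and mast cell sums rose over libraries 1 to 3 (483, 687 and 838 CPM), while *Acss2* was lowest in library 3. None of these relations was tested.

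*Acss1* (ENSMUSG00000027452, chr2:150618105-150668500, minus strand) encodes the mitochondrial acetyl-CoA synthetase. It was at 9.63, 12.3 and 8.16 CPM in Hox-WT, at 6.23, 9.82 and 7.46 CPM in Hox-URE and at 0.525, 1.19 and 0.515 CPM in URE-AML. The Hox lines overlapped (log2 fold change -0.36, 95% interval -0.99 to 0.27, edgeR adjusted p = 0.314), while all URE-AML libraries lay far below both. The fall was 13.6-fold from Hox-WT (log2 fold change -3.77, SE 0.35, edgeR adjusted p = 7.26e-06) and 10.6-fold from Hox-URE (log2 fold change -3.41, edgeR adjusted p = 1.67e-05).

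The balance of the acetate enzymes was taken as the log2 ratio of *Acss2* to *Acss1* counts within a library, after adding 0.5 counts to each, so that library scaling dropped out. Hox-WT stood at -0.23 ± 0.21, Hox-URE at 3.46 ± 0.49 and URE-AML at 2.88 ± 0.65 (mean ± SD, n = 3). Both URE-deleted lines therefore held more *Acss2* than *Acss1* counts in every library, and Hox-WT held fewer in every library. These counts are not corrected for transcript length. Per kb of transcript the 2 genes overlapped in Hox-WT (2.88 for *Acss2* and 2.78 CPM for *Acss1*). The difference of the ratio from Hox-WT was 3.68 in Hox-URE and 3.11 in URE-AML, with no overlap. In Hox-URE *Acss2* was higher than in Hox-WT (log2 fold change 3.40). In URE-AML *Acss1* was lower (-3.77), and *Acss2* was not called (-0.60). An exact two-sided permutation test of 3 libraries against 3 cannot give a p below 0.1, which it gave for both (0.15 after adjustment over 9 ratio comparisons). Hox-URE and URE-AML overlapped (difference -0.57, exact permutation p = 0.3).

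*Acly* (ENSMUSG00000020917, chr11:100476353-100528000, minus strand), the citrate route to acetyl-CoA, was at 412, 443 and 411 CPM in Hox-WT. It was at 301, 295 and 270 CPM in Hox-URE and at 258, 313 and 310 CPM in URE-AML. Both URE-deleted lines lay below Hox-WT without overlap and overlapped each other. The difference had an edgeR adjusted p of 0.00104 in Hox-URE (log2 fold change -0.55, SE 0.10) and 0.00107 in URE-AML (log2 fold change -0.52, SE 0.10). At 1.46-fold and 1.44-fold, both stayed under the 1.5-fold limit and were not called. With library size as the only scaling, the Hox-URE difference was -0.65 and was called.

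None of the carboxylases or the synthase, the core of the pathway, was called in any comparison. *Acaca* (ENSMUSG00000020532, chr11:84129672-84401651, plus strand), the cytosolic acetyl-CoA carboxylase, was at 352, 303 and 287 CPM in Hox-WT. It was at 299, 245 and 220 CPM in Hox-URE and at 246, 280 and 235 CPM in URE-AML. Hox-WT lay above URE-AML without overlap but overlapped Hox-URE, and no difference was called. The log2 fold changes were -0.30 in Hox-URE (95% interval -0.59 to -0.01, edgeR adjusted p = 0.0765) and -0.31 in URE-AML (95% interval -0.60 to -0.02, edgeR adjusted p = 0.0678) against Hox-WT. Between URE-AML and Hox-URE the interval was -0.30 to 0.29.

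The counts of *Acaca* share sequence with a copy elsewhere. Of the 31-base words in its coding transcripts, 53.2% also occur in *Gm5182*, a processed pseudogene. *Gm5182* was at 1.46 to 1.80 CPM in Hox-WT, at 1.64 to 2.44 CPM in Hox-URE and at 24.0 to 26.4 CPM in URE-AML, so only URE-AML stood high. It was called higher in URE-AML than in Hox-WT (log2 fold change 3.93, SE 0.18, edgeR adjusted p = 4.14e-08) and than in Hox-URE (log2 fold change 3.66, edgeR adjusted p = 8.1e-08). With its counts added to *Acaca*, the log2 fold change of *Acaca* was -0.18 in URE-AML against Hox-WT (edgeR adjusted p = 0.27) and 0.12 against Hox-URE (edgeR adjusted p = 0.452). Whether reads of one were assigned to the other was not tested. *Gm5182* was looked at because of this shared sequence and is no member of the list.

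*Acacb* (ENSMUSG00000042010, chr5:114146535-114250761, plus strand), the carboxylase at the outer mitochondrial membrane, was low and variable. Hox-WT libraries held 2, 21 and 22 counts, Hox-URE 48, 46 and 16, and URE-AML 7, 44 and 34. All Hox-URE libraries were above those of Hox-WT in CPM, which was so, in either direction, for 60.3% of all genes. Its difference was not called (log2 fold change 1.49, 95% interval -0.24 to 3.22, edgeR adjusted p = 0.132). The log2 ratio of *Acaca* to *Acacb* averaged 9.68 ± 1.91 for Hox-WT, 7.47 ± 0.52 for Hox-URE and 8.01 ± 1.44 for URE-AML (mean ± SD, n = 3). *Acaca* thus held nearly all the counts of the pair in every library, and only Hox-URE and Hox-WT did not overlap (difference -2.20, exact permutation p = 0.1). In Hox-WT the ratio was 11.87 in library 1, with 2 *Acacb* counts, against 8.62 and 8.53, and without that library the difference was -1.10.

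*Fasn* (ENSMUSG00000025153, chr11:120805846-120824547, minus strand), the fatty acid synthase, was at 1169, 1061 and 940 CPM in Hox-WT. It was at 1302, 1196 and 1045 CPM in Hox-URE and at 951, 1184 and 986 CPM in URE-AML. The 3 lines overlapped, and no difference was called. The 95% intervals of the log2 fold change were -0.13 to 0.45 for Hox-URE versus Hox-WT, -0.31 to 0.26 for URE-AML versus Hox-WT and -0.47 to 0.10 for URE-AML versus Hox-URE, so each excluded a 1.5-fold difference.

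**Figure D2:**
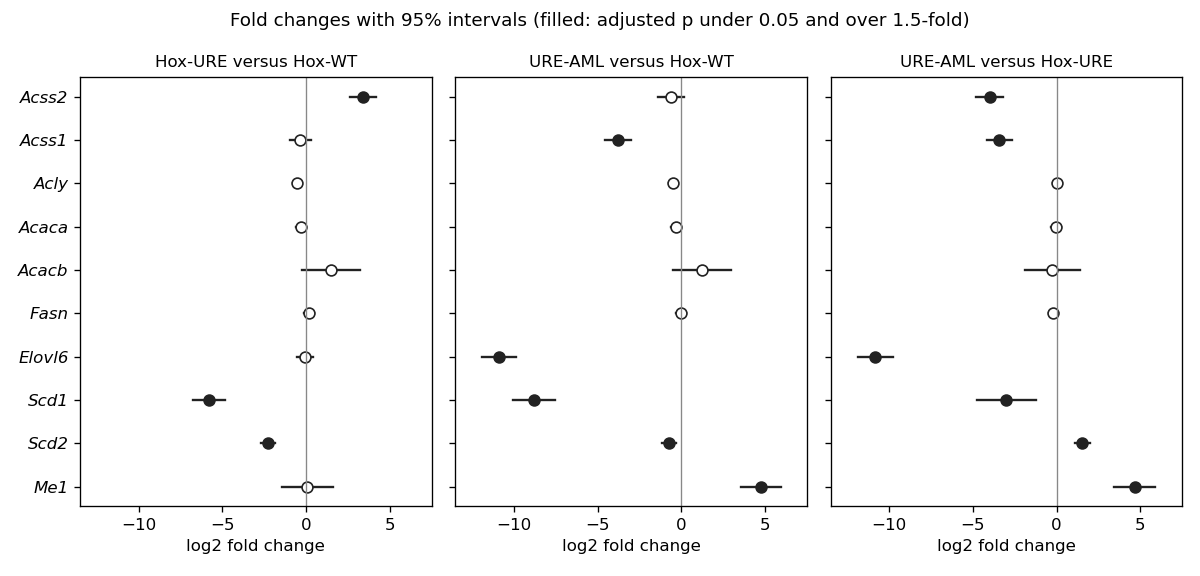
Log2 fold changes of the 10 genes (points) with 95% intervals (lines) in the 3 comparisons, where filled points passed an edgeR adjusted p of 0.05 and 1.5-fold. *Acly*, *Acaca*, *Acacb* and *Fasn* are open in all panels, *Scd1* is filled in all, and *Elovl6* lies at -10.90 and -10.83 in the panels with URE-AML.

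*Elovl6* (ENSMUSG00000041220, chr3:129532355-129638495, plus strand) encodes the elongase that lengthens palmitate to stearate. It was at 61.6, 79.8 and 54.1 CPM in Hox-WT and at 47.8, 78.0 and 60.6 CPM in Hox-URE. In URE-AML its counts were 0, 2 and 0. The Hox lines overlapped (log2 fold change -0.07, 95% interval -0.55 to 0.42, edgeR adjusted p = 0.819), and URE-AML held almost none of the transcript. From 2 counts against 5440, the ratio of Hox-WT to URE-AML was 2248, with a 95% counting interval of 622 to 18569. The ratio of Hox-URE to URE-AML was 2127, with an interval of 588 to 17565. Both differences were called (edgeR adjusted p = 2.94e-08 and 3.71e-08). Counting intervals cover counting error only, and the fitted log2 fold changes of -10.90 and -10.83 depend on the prior count. Both URE-AML counts were in library 2, and without it the fitted values were -13.69 and -13.62, against a line at 0 counts. The 2 tested neighbours of *Elovl6* within 250 kb had log2 fold changes of -0.34 and 0.93 against Hox-WT in URE-AML. Of these, 1 was called higher and 0 lower, beside 23% and 20.2% of all genes. A count over 2 genes cannot describe the region.

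*Scd1* (ENSMUSG00000037071, chr19:44394455-44407879, minus strand) and *Scd2* (ENSMUSG00000025203, chr19:44293674-44306864, plus strand) encode stearoyl-CoA desaturases, which add the double bond that makes oleate and palmitoleate. *Scd1* was at 31.7, 59.6 and 31.8 CPM in Hox-WT. It was at 0.947, 0.912 and 0.255 CPM in Hox-URE, and its counts in URE-AML were 1, 4 and 1. The 3 lines did not overlap, but the Hox-URE counts were 26, 22 and 5. Hox-URE and URE-AML were thus parted by 5 against 4 counts, near the floor. Libraries of these 2 lines did not overlap for 62.8% of all genes. Hox-URE held 55.7-fold less *Scd1* than Hox-WT (log2 fold change -5.80, SE 0.42, edgeR adjusted p = 2.18e-06). The counting ratio of Hox-WT to URE-AML was 473 (95% interval 217 to 1290, edgeR adjusted p = 4.46e-07) and that of Hox-URE to URE-AML was 8.58 (95% interval 3.69 to 24.4, edgeR adjusted p = 0.0077). Without URE-AML library 2, the log2 fold changes of URE-AML moved from -8.80 to -9.78 against Hox-WT and from -3.0 to -3.98 against Hox-URE.

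*Scd2* was at 428, 515 and 356 CPM in Hox-WT, at 87.1, 89.9 and 91.4 CPM in Hox-URE and at 193, 338 and 254 CPM in URE-AML. From high to low the lines stood as Hox-WT, URE-AML and Hox-URE, with no overlap between neighbours. *Scd2* fell by 2.28 on the log2 scale in Hox-URE (SE 0.20, edgeR adjusted p = 8.49e-06) and stood 1.55 above Hox-URE in URE-AML (SE 0.20, edgeR adjusted p = 7.77e-05). The difference between URE-AML and Hox-WT was called (log2 fold change -0.73, SE 0.19, edgeR adjusted p = 0.00802), but in 15 of 18 alternatives. It was under 1.5-fold without Hox-WT library 2 (-0.58) or URE-AML library 1 (-0.55), and a test against 1.5-fold gave an adjusted p of 0.23.

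The log2 ratio of *Scd2* to *Scd1* counts averaged 3.45 ± 0.32 for Hox-WT, 7.14 ± 1.04 for Hox-URE and 11.40 ± 0.69 for URE-AML (mean ± SD, n = 3). It was higher in both URE-deleted lines, and the lines did not overlap in any comparison (exact permutation p = 0.1, the smallest possible, for each of 3). Of the 31-base words of the coding transcripts, 8.16% for *Scd1* and 6.86% for *Scd2* occur in another gene. Of the 396 shared words of *Scd1*, 252 are shared with *Scd2* itself and 284 with *Scd3*, which was at 0 counts in all 9 libraries. Whether reads were split between *Scd1* and *Scd2* was not tested.

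*Me1* (ENSMUSG00000032418, chr9:86581371-86695953, minus strand) encodes the cytosolic malic enzyme, a source of NADPH for the synthase. Hox-WT libraries held 2, 8 and 1 counts, Hox-URE 4, 4 and 2, and URE-AML 73, 85 and 94. The Hox lines were at or near the floor, and every URE-AML library was above all of theirs. The counting ratio was 27.7 over Hox-WT (95% interval 15.2 to 56.2, edgeR adjusted p = 3.51e-05) and 26 over Hox-URE (95% interval 13.9 to 54.8, edgeR adjusted p = 4.63e-05). Without Hox-WT library 2, which held 8 of the 11 Hox-WT counts, the log2 fold change over Hox-WT moved from 4.75 to 5.95. Of the words of *Me1*, 32.1% also occur elsewhere, mostly in the processed pseudogene *Gm7049*, which held 11 counts over the 3 URE-AML libraries and 0 in the Hox lines. With these added, the log2 fold changes of *Me1* in URE-AML were 4.81 and 4.73, against 4.75 and 4.67 without them.

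**Figure D3:**
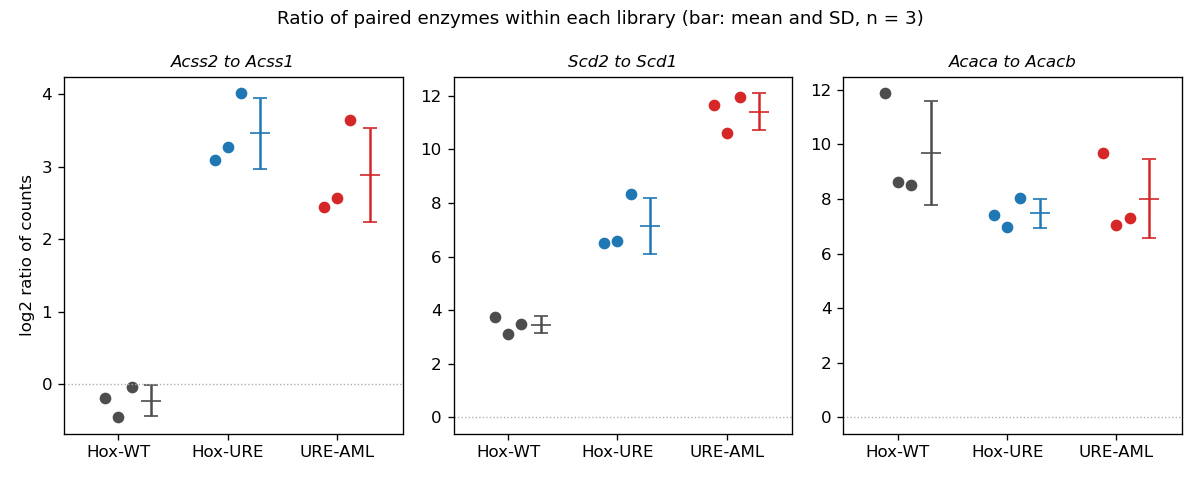
Log2 ratio of counts of paired enzymes in each library (points) with the mean and SD of 3 libraries per line (bars). Counts are not corrected for transcript length. The *Acss2* to *Acss1* ratio of counts is below 0 only in Hox-WT, and the *Scd2* to *Scd1* ratio steps up from 3.45 (Hox-WT) through 7.14 (Hox-URE) up to 11.40 (URE-AML).

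Levels of different genes were compared per length, as CPM per kb of the longest transcript with a coding part. *Fasn* was the highest of the 10 in each line, at 105 CPM per kb for Hox-WT, 118 for Hox-URE and 104 for URE-AML. *Acly* followed in each line, at 95.3, 65.3 and 66.3 CPM per kb, and overlapped *Fasn* in Hox-WT only. *Acss2* ranked 7 of 10 in Hox-WT at 2.88 CPM per kb, where it overlapped *Acss1* at 2.78. In Hox-URE it ranked 3 at 30.5 CPM per kb, above *Acaca* at 26.8, which it overlapped. In URE-AML it ranked 5 at 1.91 CPM per kb and overlapped *Me1* at 1.12. By this measure *Acss2* made up 0.853% of the summed level of the 10 genes in Hox-WT, against 11.3% in Hox-URE and 0.770% in URE-AML. With coding length in place of transcript length, an alternative chosen after seeing the data, the ranks of *Acss2* were 8, 5 and 5, its shares were 0.467%, 8.56% and 0.510%, and *Scd2* was above *Fasn* in Hox-WT and URE-AML.

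The 5 tested genes most like *Acss2* were found by the root mean square difference of log2 CPM, each gene centred on its own mean over the 9 libraries, among 13081 genes with a median difference of 1.87. They were *Cd79a*, *Sdsl*, *Xrcc5*, *Mettl7a1* and *Serinc5*, at 0.30 to 0.39. *Cd79a*, a B cell receptor chain, averaged 0.178 CPM in Hox-WT, 2.09 CPM in Hox-URE and 0.0445 CPM in URE-AML, so its likeness rests on few counts. *Xrcc5*, the DNA repair protein Ku80, was at 3.91, 32.2 and 3.32 CPM, and *Mettl7a1* at 21.2, 135 and 11 CPM. The nearest gene of the pathway lists was *Pcx*, pyruvate carboxylase, which feeds oxaloacetate to citrate and ranked 38 at 0.53. *Pcx* was at 3.67, 4.57 and 4.46 CPM in Hox-WT, at 16.6, 42.5 and 60.5 CPM in Hox-URE and at 3.88, 4.33 and 4.42 CPM in URE-AML. As with *Acss2*, library 1 was the lowest of Hox-URE and all 3 lay above the other lines. Pattern likeness is a description of 9 libraries of 3 lines, and an order of libraries shared by genes chosen for it follows from the choice.

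**Figure D4:**
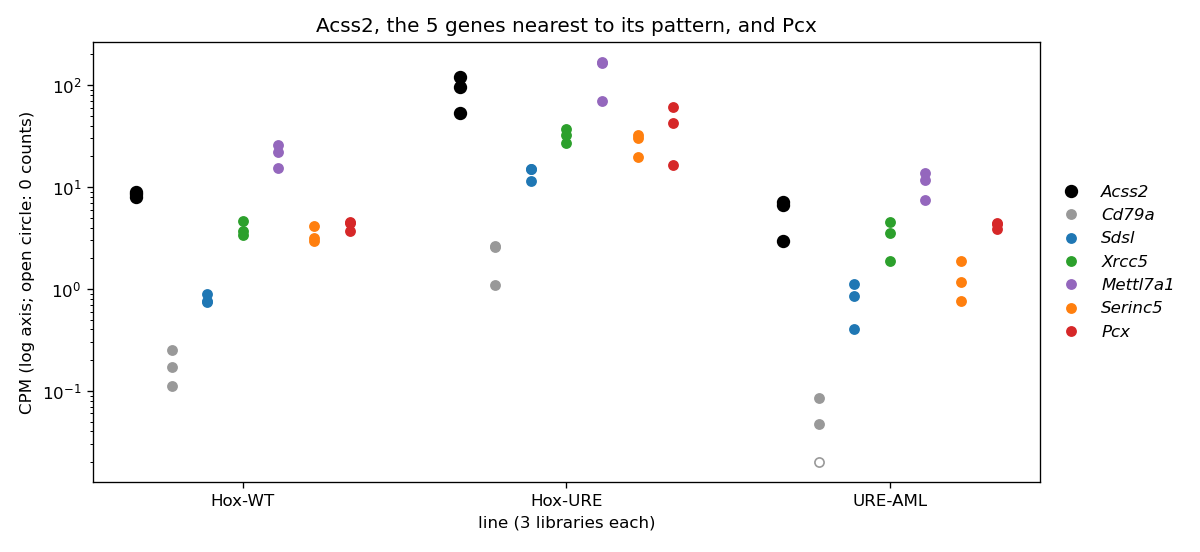
CPM (log axis) of *Acss2*, the 5 genes nearest to its pattern and *Pcx* in the 3 libraries of each line, with an open circle for 0 counts. All 7 genes are highest in Hox-URE, where library 1 gives the lowest point of each. All but *Acss2* were chosen for likeness to it over these same libraries.

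Around *Acss2* on chromosome 2, 11 tested genes lay within 250 kb. In Hox-URE versus Hox-WT these gave 2 higher and 2 lower calls, beside 37.2% called over all genes, with a median log2 fold change of -0.17, a lowest of -3.19 and a highest of 0.97. Against Hox-URE, URE-AML gave 1 higher and 4 lower calls, beside 42.7% over all genes, with a median of -0.16.

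The wider pathway was read from 5 lists of 102 genes in all, of which 101 were in the table and 86 were tested. In Hox-URE versus Hox-WT, 29 were called (33.7%, beside 37.2% of all genes), 19 higher and 10 lower. In URE-AML versus Hox-WT, 41 were called (47.7%, beside 43.2%), 23 higher and 18 lower. In URE-AML versus Hox-URE, 30 were called (34.9%, beside 42.7%), 19 higher and 11 lower. These shares lie near the backgrounds.

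Of 17 tested genes of acetyl-CoA and NADPH supply, 4 were called above Hox-WT and 4 below it in Hox-URE (47.1%, beside 37.2% of all genes). Among those that rose were *Pcx* (log2 fold change 3.23), *G6pdx* (1.13) and *Aco1* (0.76). *G6pdx* opens the pentose phosphate route to NADPH, and *Aco1* encodes the cytosolic aconitase. *Sirt1*, a deacetylase known to act on AceCS1, the *Acss2* product, fell by 1.70, the NADP-dependent isocitrate dehydrogenase *Idh2* by 1.59, the malic enzyme *Me2* by 0.96 and the pyruvate dehydrogenase subunit *Pdha1* by 0.71. In URE-AML versus Hox-WT, *G6pdx* was again called higher (1.51), and 5 genes were lower, among them *Idh2* (-2.26) and the mitochondrial citrate carrier *Slc25a1* (-0.82, edgeR adjusted p = 0.00469). *Slc25a1* was at 110, 126 and 135 CPM in Hox-WT and at 59.9, 73.8 and 76.1 CPM in URE-AML. In Hox-URE it was at 67.6, 100 and 125 CPM and was not called (edgeR adjusted p = 0.168). In URE-AML versus Hox-URE, *Sirt1* was higher (1.52) and *Pcx* (-3.24), *Aco1* (-1.42), *Sirt3* (-0.74) and *Idh2* (-0.67) were lower.

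Of 17 tested elongases, desaturases and genes of mitochondrial synthesis, Hox-URE had 1 above Hox-WT and 3 below (23.5%, beside 37.2% of all genes), while URE-AML had 3 above and 6 below (52.9%, beside 43.2%). *Elovl7*, an elongase of saturated very long chains, was at 6.94, 8.18 and 9.34 CPM in Hox-WT. It was at 0.692, 0.539 and 1.18 CPM in Hox-URE and at 50.1, 35.8 and 32.4 CPM in URE-AML. Hox-URE was lowest and URE-AML highest with no overlap, and *Elovl7* was called in each comparison, at -3.37, 2.27 and 5.65 on the log2 scale. The desaturase *Fads3* was called higher in both URE-deleted lines (2.41 and 4.50). *Fads1* (-1.0) and *Fads2* (-1.31), the delta desaturases of polyunsaturated chains, were called below Hox-WT in URE-AML, as were the mitochondrial synthesis genes *Mcat* (-0.80) and *Oxsm* (-0.95), while *Cbr4* of the same route was called higher (0.73). *Hacd4*, a dehydratase of the elongation cycle, was at 8.70 to 16.8 CPM in Hox-WT and at most 0.539 CPM in either URE-deleted line, and *Fads6* had 287 counts in Hox-WT and 2 in each of the others.

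Of 15 tested acyl-CoA synthetases and genes of glycerolipid assembly, Hox-URE versus Hox-WT had 5 higher and 3 lower calls, URE-AML versus Hox-WT had 7 and 3, and URE-AML versus Hox-URE had 4 and 0. These are 53.3%, 66.7% and 26.7% of the list, beside 37.2%, 43.2% and 42.7% of all genes. *Agpat3*, an acyltransferase of phosphatidic acid and phospholipid remodelling, was at 0.900, 1.82 and 1.11 CPM in Hox-WT. It was at 152, 145 and 141 CPM in Hox-URE and at 160, 170 and 169 CPM in URE-AML. Both URE-deleted lines were far above Hox-WT (log2 fold change 6.83 and 7.02, edgeR adjusted p = 7.36e-09 and 2.33e-09). *Lpin1*, a phosphatidate phosphatase, was also called higher in both, at 3.21 and 3.15. *Dgat1* and *Dgat2*, which make triglyceride, were called in URE-AML against both Hox lines, at 2.51 and 2.71 over Hox-WT and at 1.32 and 2.24 over Hox-URE. *Dgat1* was also called higher in Hox-URE over Hox-WT (1.19). *Dgat2* was at 71.0, 21.1 and 11.2 CPM in Hox-URE, and its difference from URE-AML ran from 1.82 to 3.33 over alternatives. *Acsl3*, an acyl-CoA synthetase of lipid droplets, was lower in both URE-deleted lines (-1.53 and -1.16), and *Acsl1* was higher in URE-AML (1.20 over Hox-WT).

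**Figure D5:**
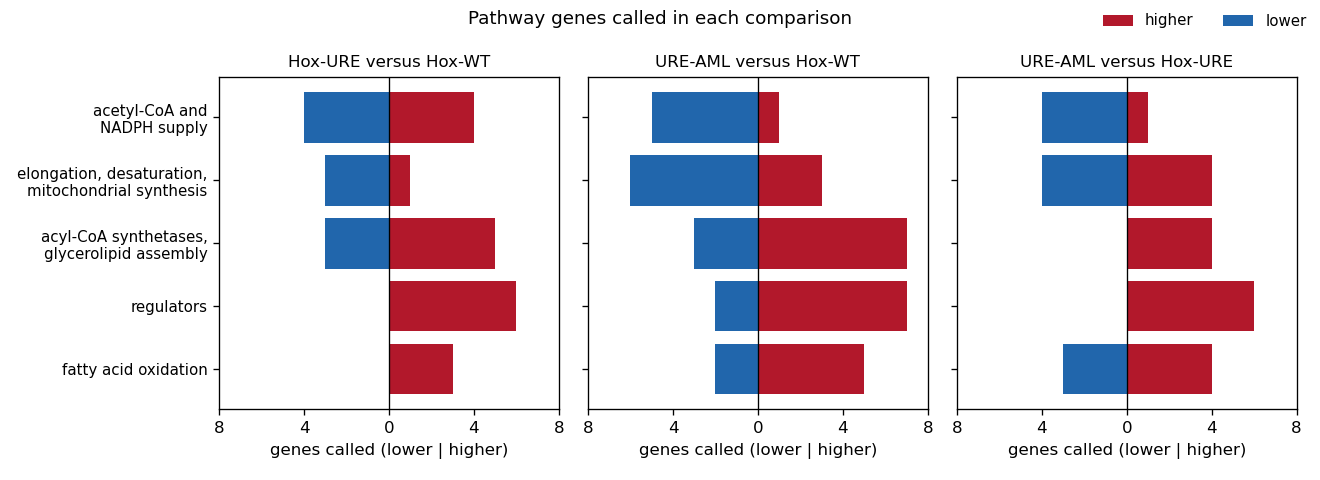
Number of genes called higher (red, to the right) and lower (blue, to the left) in each of the 5 pathway lists and 3 comparisons. Glycerolipid assembly and the regulators had 0 lower calls in URE-AML versus Hox-URE, while acetyl-CoA and NADPH supply had 4 lower and 1 higher.

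Of 20 tested regulators, Hox-URE versus Hox-WT had 6 higher and 0 lower calls, URE-AML versus Hox-WT had 7 and 2, and URE-AML versus Hox-URE had 6 and 0. At 30%, 45% and 30% of the list, the calls lay near or below the 37.2%, 43.2% and 42.7% of all genes. *Srebf1*, whose product SREBP1 drives fatty acid synthesis genes, was at 93.9, 112 and 99.7 CPM in Hox-WT, 101, 96.9 and 93.4 CPM in Hox-URE and 127, 163 and 149 CPM in URE-AML. It was called only against Hox-URE (log2 fold change 0.59, edgeR adjusted p = 0.0009), in 11 of 18 alternatives, and against Hox-WT it was 0.52 (edgeR adjusted p = 0.00186), under 1.5-fold. *Srebf2*, its partner for sterol genes, was called in no comparison (log2 fold changes -0.12, 0.15 and 0.26). *Mlxipl*, the gene of ChREBP, stayed at or under 0.666 CPM and was not tested, while its partner *Mlx* was higher in both URE-deleted lines (0.63, in 14 of 18 alternatives, and 1.47). The liver X receptor gene *Nr1h3* was at 0.484 to 0.712 CPM in Hox-WT, 0.307 to 1.49 CPM in Hox-URE and 32.4 to 43.2 CPM in URE-AML, where it was called (log2 fold change 6.02 over Hox-WT, edgeR adjusted p = 3.97e-07). *Thrsp*, a lipogenic cofactor, had 99 counts in URE-AML and 0 in both Hox lines, so against the floor of 3 counts per library it was at least 13.3-fold higher against Hox-WT and at least 11.1-fold higher against Hox-URE. *Mlycd*, which breaks down malonyl-CoA, was higher in both URE-deleted lines (1.31 and 1.66).

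Of 17 tested genes of fatty acid oxidation, Hox-URE versus Hox-WT had 3 higher and 0 lower calls, URE-AML versus Hox-WT had 5 and 2, and URE-AML versus Hox-URE had 4 and 3. The shares called were 17.6%, 41.2% and 41.2%, against 37.2%, 43.2% and 42.7% over all genes. *Slc25a20*, the carnitine carrier that brings acyl groups into mitochondria, was at 21.8, 24.1 and 23.7 CPM in Hox-WT and at 28.8, 32.0 and 33.9 CPM in Hox-URE. In URE-AML it was at 2.50, 1.33 and 2.23 CPM, below both without overlap (log2 fold change -3.51 and -3.95, edgeR adjusted p = 1.72e-07 and 9.54e-08). *Cpt1a*, which loads acyl groups onto carnitine and is inhibited by malonyl-CoA, was also called lower in URE-AML against Hox-WT (-0.89) and Hox-URE (-1.03). *Acadvl*, the very long chain acyl-CoA dehydrogenase, was called higher in both URE-deleted lines (0.59, in 12 of 18 alternatives, and 1.15), and the lipid receptor *Ppard* was called higher in URE-AML (1.61 over Hox-WT and 1.72 over Hox-URE).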

How the data were processed

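Poly-A RNA of 3 lines was sequenced from stranded libraries. Per the labels and methods, the authors quantified reads with salmon and tximport. The deposited values are estimated counts by gene, rounded and without library scaling. Salmon's version, the transcriptome release and any length scaling are not given in the sources used here, so isoform changes could affect a count. The build named is GRCm38. Coordinates and lengths came from GENCODE M21, in which 54094 of 54347 identifiers were found, and promoter windows from RefSeq on GRCm38.p6. Hairpin sites came from the study's sequence list and were matched to GENCODE transcripts.

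Groups and library numbers came from the labels, and 0 columns were left unused. Genes were kept by filterByExpr (minimum count 10), and 13082 remained. All 9 libraries entered 1 edgeR 4.0.16 quasi-likelihood fit in R 4.3.3, with line as the only factor and TMM scaling (common coefficient of variation 0.173). Each SE was obtained as |log2 fold change| over the root of F. Counting intervals of ratios are exact (Clopper-Pearson) at 95%. Isoenzyme ratios were compared by exact permutation tests in SciPy 1.17.1. The code was tested on simulated data.

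The members, pathway lists, tests and alternatives were chosen with earlier results of these data known. All members were named, and pathway genes only where called (not every called gene is reported here), with *Srebf1*, *Srebf2*, *Slc25a1* and *Mlxipl* always. The 5 genes nearest to *Acss2* were named by the distance given in the report. *Gm5182*, *Gm7049* and *Scd3* were named outside this rule, for sequence shared with members. Alternatives were 3 other scalings, 2 other count filters, the 6 libraries compared, glmTreat, no fold limit, DESeq2 1.42.0, a block for replicate number, and leaving out each library. Coding length, non-overlap as a call, and adding pseudogene counts were chosen after seeing the data. Figures were drawn with matplotlib 3.10.9.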

Additional observations from a re-analysis of the deposited data

Results flagged for a closer look

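For 6 of the 10 genes the change against Hox-WT differed between Hox-URE and URE-AML, by the edgeR test of URE-AML versus Hox-URE, in which 42.7% of all tested genes were called. *Acss2* was higher in Hox-URE and not in URE-AML, with a difference of -4.0 on the log2 scale. *Elovl6* and *Acss1* overlapped Hox-WT in Hox-URE and were lower in URE-AML, with differences of -10.83 and -3.41. The *Elovl6* difference ranged from -13.62 to -10.27 over libraries left out, with the lowest value without URE-AML library 2. *Me1* was near the floor in both Hox lines and higher in URE-AML, with a difference of 4.67. *Scd1* and *Scd2* were lower than in Hox-WT in both lines, *Scd1* further in URE-AML (difference -3.00) and *Scd2* less far there (difference 1.55). Hox-WT is the shared control of both changes, and what sets the lines apart was not tested.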

How the results depend on the processing

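Of 532 recomputed fold changes of the 10 genes, 507 kept their direction and call. Those that turned direction were all differences that were not called. Against Hox-WT in Hox-URE, *Elovl6* turned from -0.07 to 0.10 without Hox-WT library 2 and to 0.08 without Hox-URE library 1 (range over libraries left out -0.28 to 0.10), and *Me1* from 0.08 to -0.02 with library size as the only scaling and to -0.18, -0.38 and -0.07 without Hox-WT library 1, Hox-WT library 3 or Hox-URE library 2 (range -0.38 to 1.29). *Fasn* in URE-AML against Hox-WT turned from -0.02 to 0.05, 0.04 and 0.01 without Hox-WT library 1, URE-AML library 1 or URE-AML library 3 (range -0.12 to 0.05). In URE-AML against Hox-URE, *Acly* turned from 0.02 to -0.03, -0.02 and -0.02 without Hox-URE library 3, URE-AML library 2 or URE-AML library 3, and *Acacb* from -0.24 to 0.24 without URE-AML library 1 (range -0.78 to 0.24). *Acaca* there turned from -0.01 to 0.10 with library size only, 0.01 without a filter, 0.12 without Hox-URE library 1, 0.02 and 0.05 without URE-AML library 1 or 3 (range -0.10 to 0.12), and 0.12 with *Gm5182* counts added. *Acly* in Hox-URE became called with library size only (-0.65), and *Scd2* in URE-AML against Hox-WT lost its call as given in the report. The cause was not tested.

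Requiring 10 counts in every library left 10022 genes and 6 of the 10 members, with 2 and 3 members called against Hox-WT and Hox-URE in URE-AML in place of 5 and 6. Genes called there were 3200, 3602 and 3553 in the 3 comparisons, in place of 4873, 5648 and 5591, with fewer genes tested. Non-overlap of libraries held for 7886 genes in Hox-URE versus Hox-WT. Pathway calls were 19 by glmTreat, in place of 29, in Hox-URE versus Hox-WT and 48 without a fold limit, in place of 30, in URE-AML versus Hox-URE. With library size as the only scaling, Hox-URE versus Hox-WT split into 2502 higher and 2545 lower, in place of 2789 and 2084, and URE-AML versus Hox-URE into 3166 and 2605, in place of 2662 and 2929. That scaling moved the median of all genes by 0.11 in the latter and by -0.08 in the former. Leaving out each library in turn gave 3, 4 to 5 and 6 members called in the 3 comparisons, in report order. The *Acaca* to *Acacb* ratio between URE-AML and Hox-URE ranged from -0.30 to 1.02 over libraries left out and turned without URE-AML library 1, and that between Hox-URE and Hox-WT ranged from -2.78 to -1.10.

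No label pairs the libraries by number. Between lines, deviations of same-numbered libraries correlated at 0.01 to 0.271, and those of differently numbered libraries at -0.211 to 0.0659. Whether equal numbers mark a shared culture or day was not tested. With the replicate number as a block, 4908, 5679 and 5584 genes were called, *Acss2* in URE-AML against Hox-WT became called (-0.68, edgeR adjusted p = 0.05 after rounding), *Acaca* in URE-AML against Hox-URE turned to 0.01, and no other member changed its call. Depth limits *Me1* and *Scd1* in the lines where they held few counts, *Elovl6* in URE-AML and *Acacb* throughout. Each line is 1 line, and libraries may be technical repeats.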
